A study of Homo sapiens with 10 samples.

Results

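The imprinted growth genes described here are 10 genes taken by symbol from a table of 42335 genes: IGF2, DLK1, H19, MEG3, CDKN1C, PLAGL1, PEG3, PEG10, NNAT and MEST. All 10 symbols were present in the table. Their RNA was measured by bulk RNA sequencing in 10 libraries of H9, an established human embryonic stem cell line, taken along a neural differentiation. One H9 line carried the genotype SOX1-OT V1 PAKI (V1PAKI below) and gave 5 libraries, and wild-type H9 cells (Ctrl) gave the other 5. Each line was sampled once at d0 (stem cells) and once at each of d4, d10, d16D and d16V (labelled as neural progenitor cells). Per the protocol, colonies became floating embryoid bodies without FGF-2, received neural medium from day 4 and were plated on day 7. In both lines the ventral telencephalon arm was given 200 ng/ml Shh and 1.5 µM SAG, a small molecule that activates the same pathway, from day 10. What PAKI and the letters D and V stand for is not spelled out in the labels, which also do not say how many clones the V1PAKI cells held. Values are FPKM, the number of sequenced fragments of a gene scaled by its transcript length and by the size of the library, and differences are on the log2(FPKM + 1) scale.

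Imprinted genes are transcribed mainly from the copy inherited from one parent, and many of them control growth of the embryo and placenta. IGF2, DLK1, PEG3, PEG10, NNAT, PLAGL1 and MEST are known as genes of the paternal copy, whereas H19, MEG3 and CDKN1C are read from the maternal copy. IGF2 and H19 lie beside each other and share enhancers, with a methylated control region deciding which gene of a copy uses them, and DLK1 and MEG3 form a comparable pair. FPKM values sum over both copies, so the parental origin of the RNA was not measured.

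In the GRCh38 annotation used for positions (GENCODE v29), H19 (chr11:1995176-2001470) and IGF2 (chr11:2129112-2158658) lay on the minus strand of chromosome 11, as did CDKN1C (chr11:2883213-2885773). DLK1 (chr14:100725705-100738224) and MEG3 (chr14:100779410-100861031) lay on the plus strand of chromosome 14. PEG10 (chr7:94656325-94669695) and MEST (chr7:130486171-130506465) were on the plus strand of chromosome 7, NNAT (chr20:37521206-37523693) was on the plus strand of chromosome 20, and PLAGL1 (chr6:143940300-144064599) and PEG3 (chr19:56810077-56840728) were on minus strands. NNAT lies inside the BLCAP gene, PEG10 overlaps SGCE, and MEST overlaps COPG2 and MESTIT1, in each case on the opposite strand. IGF2 overlaps INS-IGF2 on its own strand and IGF2-AS on the other. How strand was treated in the counting is not given, so reads of these overlapping partners cannot be told apart with certainty. INS-IGF2 was listed at 0 FPKM in 9 of 10 libraries and at 9.34e-07 FPKM in Ctrl d16V.

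The start regions of H19 and MEG3, the noncoding members of the chromosome 11 and chromosome 14 pairs, are shown because H19 was among the most abundant transcripts of some libraries while MEG3 stayed near 1 FPKM or below. Each stretch is RefSeq sequence (GRCh38.p14) from 250 bases before to 50 bases after the annotated start, written in the direction of transcription, with CpG dinucleotides, the bases at which imprinting marks are laid, in capitals. Promoter entries matched for H19, MEG3, PLAGL1 and MEST.
H19 (chr11:2001217-2001516, minus strand): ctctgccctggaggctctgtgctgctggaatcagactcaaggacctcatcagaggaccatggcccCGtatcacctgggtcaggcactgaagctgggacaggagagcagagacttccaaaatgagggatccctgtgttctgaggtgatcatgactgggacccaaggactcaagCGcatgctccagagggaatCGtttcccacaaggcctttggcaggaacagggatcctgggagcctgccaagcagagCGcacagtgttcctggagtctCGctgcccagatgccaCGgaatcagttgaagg
MEG3 (chr14:100825858-100826157, plus strand): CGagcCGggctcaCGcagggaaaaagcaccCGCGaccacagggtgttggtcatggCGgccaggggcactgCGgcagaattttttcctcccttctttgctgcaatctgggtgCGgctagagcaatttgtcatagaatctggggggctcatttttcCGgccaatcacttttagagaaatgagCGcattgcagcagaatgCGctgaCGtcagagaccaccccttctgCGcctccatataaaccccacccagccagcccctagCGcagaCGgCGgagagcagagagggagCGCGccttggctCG
The H19 window held 6 CpG and the MEG3 window 19, beside a median of 14 over 27305 promoters of this length. On either strand, the letters TATAAA were found once in the MEG3 window and not in the H19 window, and 11.95% of all promoters held them. The MEG3 window lies inside the GENCODE gene, downstream of that annotation's first base.

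H19, MEG3 and MEST are also hosts of microRNAs, small RNAs cut from the longer transcript, which are shown because the values below speak of the host RNAs only. Their mature RefSeq sequences follow, with the seed (bases 2 to 8), the part that pairs with target RNAs, in capitals.
miR-675-5p (from H19): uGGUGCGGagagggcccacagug
miR-675-3p (from H19): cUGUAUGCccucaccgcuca
miR-335-5p (from MEST): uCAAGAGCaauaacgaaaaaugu
miR-335-3p (from MEST): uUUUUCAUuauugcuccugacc
miR-770-5p (from MEG3): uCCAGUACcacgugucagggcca
No seed was shared between them. IGF2 overlaps a further microRNA gene, MIR483, on its own strand, for which no mature sequence was matched. The mature microRNAs were not measured by these libraries.

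Library sums of FPKM lay between 200509 and 256270, and the sequencing depth behind them is unknown. SOX1-OT, named in the genotype, stood at 0, 0.0167, 0.0432, 0.212 and 1.22 FPKM from d0 to d16V in V1PAKI, against 0, 0.0159, 0.0513, 1.87 and 3.51 FPKM in Ctrl. The pluripotency factor POU5F1 was at 385 FPKM in V1PAKI and 326 FPKM in Ctrl at d0. At d4, where the labels already give neural progenitor cells, it was still at 328 FPKM in V1PAKI and 268 FPKM in Ctrl, and the progenitor gene SOX1 was at 0.0613 FPKM in V1PAKI and 0.0605 FPKM in Ctrl. Markers of other tissues were present in libraries labelled as neural progenitors: 16 mesenchyme and muscle markers summed to 1324 FPKM in V1PAKI d16D and 1318 FPKM in Ctrl d10, against 15.3 to 396 FPKM in the other 6 libraries from d4 on. In bulk RNA, fewer cells of a type and less RNA per cell cannot be told apart.

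The 10 genes together made up a larger part of the RNA from d10 on than at d0 and d4. Their summed FPKM was 0.0405% of the library's total in V1PAKI and 0.0413% in Ctrl at d0, and 0.0483% in V1PAKI and 0.0531% in Ctrl at d4. It was 0.272% in V1PAKI and 0.578% in Ctrl at d10, 0.660% in V1PAKI and 0.524% in Ctrl at d16D, and 0.442% in V1PAKI and 0.663% in Ctrl at d16V. At d0 most of the sum came from MEST, NNAT and PEG10, while from d10 on IGF2, H19, DLK1 and NNAT made up most of it. PEG10, NNAT, CDKN1C and MEST had at least 1 FPKM in all 10 libraries, whereas H19, IGF2 and DLK1 had it in 8 libraries, PLAGL1 in 6, MEG3 in 2 and PEG3 in 1.

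**Figure D1:**
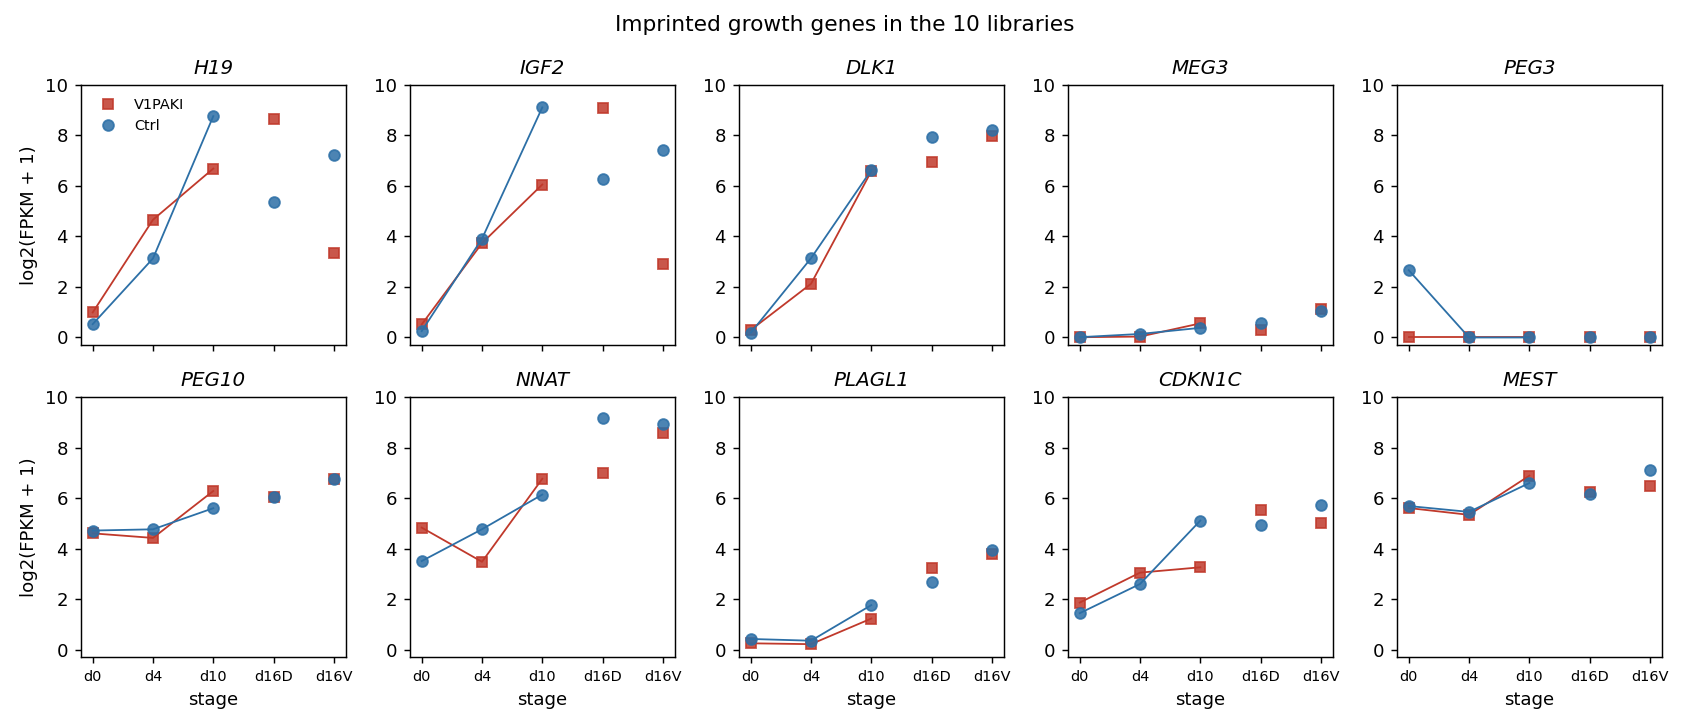
FPKM of each of the 10 genes in every library, with stage on the horizontal axis, log2(FPKM + 1) on the vertical axis and 1 point per library for V1PAKI and Ctrl. IGF2 and H19 reach their highest values in V1PAKI d16D and Ctrl d10, while DLK1 is highest at d16V in both lines and MEG3 does not exceed 1.19 FPKM.

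IGF2, a secreted growth factor that signals through the IGF1 and insulin receptors, was nearly silent in stem cells and became one of the most abundant RNAs in some later libraries. It stood at 0.431 FPKM at d0, 12.3 at d4, 65.6 at d10, 541 at d16D and 6.44 at d16V in V1PAKI. In Ctrl it stood at 0.192 FPKM at d0, 14.04 at d4, 552 at d10, 76.9 at d16D and 170.3 at d16V. The high libraries of the lines are thus at different stages, V1PAKI at d16D and Ctrl at d10, where IGF2 ranked 33rd and 36th from the top of 42335 genes. The low library after d4 was V1PAKI d16V, where it ranked 5700th.

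H19, a noncoding RNA known to restrain growth, had the same order of libraries near the top. It was at 0.987 FPKM at d0, 24.3 at d4, 102 at d10, 405 at d16D and 9.23 at d16V in V1PAKI. In Ctrl it was at 0.441 FPKM at d0, 7.76 at d4, 434 at d10, 39.7 at d16D and 149.8 at d16V. The ratio of H19 to IGF2 in FPKM lay between 0.749 and 2.29 in the V1PAKI libraries and between 0.517 and 2.30 in the Ctrl libraries, so neither RNA was present without the other. Across the 10 libraries the Pearson correlation of their log2(FPKM + 1) values was 0.98, a description over libraries that share lines and stages.

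Between the lines, IGF2 was lower in V1PAKI at d10 by a log2 difference of -3.05, higher at d16D by 2.80 and lower at d16V by -4.52. H19 differed by -2.08 at d10, 3.32 at d16D and -3.88 at d16V. These differences have no replicate check, since each is a single library against another. The changes from d10 to d16D ran in opposite directions in the lines. In V1PAKI, IGF2 was higher at d16D than at d10 by 3.02 and H19 by 1.98, whereas in Ctrl the differences were -2.83 for IGF2 and -3.42 for H19. From d16D to d16V the signs were turned round, at -6.19 for IGF2 and -5.31 for H19 in V1PAKI and 1.14 for IGF2 and 1.89 for H19 in Ctrl. Opposite steps of at least 1 were seen in 1.55% of the 15779 genes tested for d16D minus d10 and in 0.298% for d16V minus d16D.

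The summed markers of mesenchyme and muscle were highest in the libraries where IGF2 and H19 were highest, V1PAKI d16D and Ctrl d10. Within V1PAKI this list was divided. The muscle markers ACTC1 (137 to 14.9 FPKM), TAGLN (24.1 to 5.91) and ACTA2 (20.1 to 9.30) were lower at d16D than at d10. The other markers of the list were higher at d16D. The summed endoderm and liver markers were highest in V1PAKI d16D too. In Ctrl, IGF2 and H19 were lower at d16D than at d10, and the endoderm and liver markers were divided. Their sum was higher at d16D, and AFP, ALB, APOA2, APOB, TTR and FGB were higher there. SOX17, FOXA2, GATA4, GATA6 and HNF4A were lower at d16D, as IGF2 and H19 were. The number of these markers with at least 1 FPKM in Ctrl was 11 at d10 and 8 at d16D. The summed mesenchyme and muscle markers were at 41.3, 82.9, 396, 1324 and 15.3 FPKM from d0 to d16V in V1PAKI, and at 35.2, 80.1, 1318, 199.5 and 337 FPKM in Ctrl. The 15 endoderm and liver markers summed to 1.08, 50.5, 46.9, 3029 and 25.0 FPKM in V1PAKI, and to 0.457, 27.3, 276, 537 and 327 FPKM in Ctrl. The 12 trophoblast and amnion markers summed to 5.53, 33.6, 162, 247 and 10.0 FPKM in V1PAKI, and to 6.14, 35.6, 522, 35.2 and 64.1 FPKM in Ctrl. HAND1, which is also in the mesenchyme and muscle list, gave 41.4 FPKM of this sum in V1PAKI d10, 134 in V1PAKI d16D and 223 in Ctrl d10. CGA, CGB5, KRT7, XAGE2, GABRP and IGFBP3 were lower in V1PAKI at d16D than at d10. The rest of the trophoblast and amnion list was higher there. In V1PAKI d16V, 1 of the 16 mesenchyme and muscle markers was listed at 0 and 6 had at least 1 FPKM, while in V1PAKI d16D and Ctrl d10 all 16 had at least 1 FPKM. COL3A1, a collagen of connective tissue, was at 0, 9.48, 63.7, 701 and 3.44 FPKM in V1PAKI and at 0, 6.32, 379, 102 and 161 FPKM in Ctrl. The part of these cell types in the IGF2 and H19 values was not tested. The mean log2 level of the mesenchyme and muscle markers correlated with H19 and with IGF2 at 0.93 each over the 10 libraries, and with DLK1 at 0.54 and NNAT at 0.28. Other lists came close for H19 and IGF2, so the likeness is not particular to mesenchyme and muscle. The endoderm and liver markers gave 0.87 for H19 and 0.91 for IGF2, and the trophoblast and amnion markers 0.87 and 0.86. These correlations describe libraries of 2 lines that share stages.

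**Figure D2:**
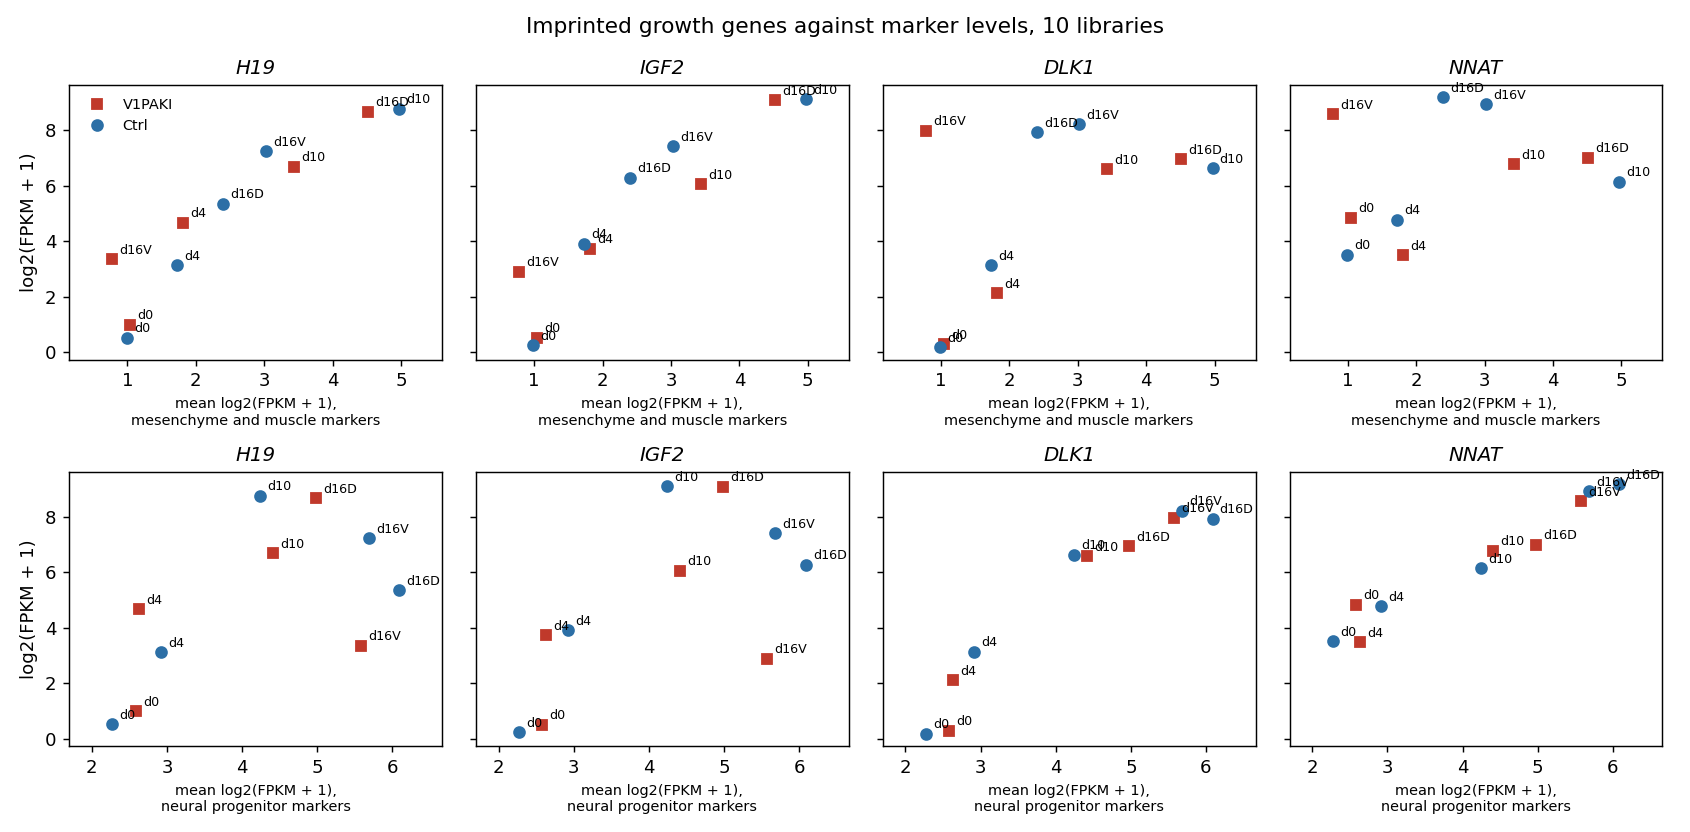
Level of H19, IGF2, DLK1 and NNAT in each of the 10 libraries against the mean log2(FPKM + 1) of mesenchyme and muscle markers and of neural progenitor markers, both axes in log2(FPKM + 1), with 1 point per library coloured by line. H19 and IGF2 correlate with the mesenchyme and muscle markers (r = 0.93 each). DLK1 and NNAT correlate with the neural progenitor markers (r = 0.96 and 0.98). Neither likeness is particular to the genes or lists shown. The endoderm and liver markers give 0.87 for H19 and 0.91 for IGF2. PEG10 (0.93), PLAGL1 (0.92), CDKN1C (0.89) and MEG3 (0.84) also correlate with the neural progenitor markers.

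DLK1, a membrane ligand of the Notch family found on progenitor cells, was low at d0 and highest at d16V in both lines. V1PAKI held 0.226 FPKM at d0, 3.36 at d4, 95.0 at d10, 122 at d16D and 250.2 at d16V. Ctrl held 0.136 FPKM at d0, 7.81 at d4, 98.0 at d10, 243 at d16D and 297 at d16V. V1PAKI was therefore above Ctrl only at d0, where both were below 1 FPKM, and the lines were closest at d10. DLK1 rose at d4 relative to d0 by a log2 change of 2.39 (SE 0.32; limma, adjusted p = 0.0306) and at d10 relative to d4 by 3.97 (SE 0.32; limma, adjusted p = 0.0102). DLK1 entered the tests only through libraries later than d0, so its d4 call is no independent support for that rise. For d16V against d10 the change was 1.49 (SE 0.32; limma, adjusted p = 0.0785). The d4 call was lost when one library was left out, with limma adjusted p = 0.153 without V1PAKI d0, 0.187 without V1PAKI d4, 0.0631 without V1PAKI d16V, 0.196 without Ctrl d0, 0.301 without Ctrl d4 and 0.0634 without Ctrl d16V. The d10 call was lost without V1PAKI d4 (0.175), V1PAKI d10 (0.0706) or Ctrl d4 (0.0581), and d16V against d10 passed without V1PAKI d16D (0.0407) or Ctrl d16D (0.0414).

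MEG3, the noncoding RNA of the maternal copy at the same locus, stayed far below DLK1. Its values were 0.00708, 0.0249, 0.473, 0.212 and 1.19 FPKM from d0 to d16V in V1PAKI. In Ctrl they were 0.00775, 0.102, 0.303, 0.480 and 1.08 FPKM. Only the d16V libraries passed 1 FPKM, in both lines, and there MEG3 reached 0.00477 of the DLK1 level in V1PAKI and 0.00362 in Ctrl. MEG8 and MEG9, further maternal noncoding RNAs downstream of MEG3, did not exceed 0.0300 and 0.152 FPKM in any library. RTL1, a paternally expressed protein gene of this locus, was at 0, 0.0168, 0.614, 0.319 and 1.53 FPKM in V1PAKI, and at 0, 0.0611, 0.425, 1.17 and 1.83 FPKM in Ctrl. DIO3, which encodes an enzyme that inactivates thyroid hormone at the far end of the locus, was at 0.0414, 0.871, 3.68, 8.81 and 5.01 FPKM in V1PAKI and at 0.0352, 0.709, 14.2, 8.35 and 11.4 FPKM in Ctrl. DIO3 had at least 1 FPKM in all libraries from d10 on, RTL1 in 3 of the 4 d16 libraries only. The MEG3 values at d4, d10 and d16D all lay below 0.5 FPKM.

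CDKN1C, a cyclin-dependent kinase inhibitor that holds cells out of the cell cycle, was expressed at every stage. V1PAKI had 2.66 FPKM at d0, 7.33 at d4, 8.64 at d10, 45.9 at d16D and 31.8 at d16V. Ctrl had 1.74 FPKM at d0, 5.10 at d4, 33.8 at d10, 29.5 at d16D and 53.0 at d16V. At d10 the V1PAKI value was lower by a log2 difference of -1.85, the only stage at which CDKN1C passed a difference of 1. IGF2 and H19 were lower in V1PAKI at d10 too, and also at d16V, where the CDKN1C difference was -0.72. Its neighbour PHLDA2, another maternally expressed growth restrainer, was called in no test and was chosen here for its position. PHLDA2 was at 1.89, 2.59, 1.32, 1.63 and 0.163 FPKM from d0 to d16V in V1PAKI. In Ctrl it was at 0.654, 1.84, 5.95, 0.493 and 0.902 FPKM. PHLDA2 was thus lower in V1PAKI at d10 and d16V and higher at d0, d4 and d16D.

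PLAGL1, a zinc finger transcription factor with growth restraining activity, appeared late. It was at 0.197, 0.170, 1.36, 8.39 and 12.8 FPKM from d0 to d16V in V1PAKI. Ctrl values were 0.349, 0.286, 2.42, 5.44 and 14.5 FPKM. Both d16V libraries were above all others. PLAGL1 entered the tests only through libraries from d10 on, so a call for d10 against d4 is no independent support for a rise at d10. PLAGL1 rose at d16V relative to d10 by a log2 change of 2.36 (SE 0.27; limma, adjusted p = 0.0107), and the changes were 1.45 for d16D against d10 (SE 0.27; limma, adjusted p = 0.0591) and 1.21 for d10 against d4 (SE 0.27; limma, adjusted p = 0.0751). The d16V call was lost in limma fits without V1PAKI d10 (adjusted p = 0.0740), V1PAKI d16V (0.145), Ctrl d10 (0.0565) or Ctrl d16V (0.129). The d10 change passed without V1PAKI d16D (0.0339) or Ctrl d16D (0.0347), and also with a pseudocount of 0.1 (0.0331), where the log2 change was 2.57.

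PEG3, a large zinc finger protein gene, was listed at 0 FPKM in all 5 V1PAKI libraries. In Ctrl it was at 5.33 FPKM at d0, listed at 0 at d4, d10 and d16D, and 0.0152 at d16V. A single library thus passed 1 FPKM, and PEG3 did not enter the tests. Its neighbours ZIM2 and MIMT1 were above 0 only in Ctrl d0, at 0.217 and 0.0498 FPKM. A listed 0 can be a failed estimate, and one library cannot show whether the difference belongs to the line.

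PEG10, a gene derived from a retrotransposon and needed in the mouse placenta, was already expressed in stem cells. V1PAKI had 23.5 FPKM at d0, 20.6 at d4, 77.3 at d10, 66.0 at d16D and 107 at d16V. Ctrl had 25.4 FPKM at d0, 26.4 at d4, 47.8 at d10, 66.1 at d16D and 106.5 at d16V. The lines differed by less than 1 on the log2 scale at every stage and the d16 values of the lines nearly coincided. For d10 against d4 the change was 1.35 (SE 0.25; limma, adjusted p = 0.0513), which passed without Ctrl d10 (0.0384). SGCE, the paternally expressed neighbour that overlaps PEG10 on the other strand, stayed between 0.729 and 1.57 FPKM.

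NNAT, which encodes the small membrane protein neuronatin of developing brain, was the most abundant member at d16V in both lines. In V1PAKI it was at 27.7 FPKM at d0, 10.2 at d4, 108 at d10, 127 at d16D and 379 at d16V. In Ctrl it was at 10.4 FPKM at d0, 26.4 at d4, 70.0 at d10, 578 at d16D and 485 at d16V. V1PAKI was above Ctrl at d0 by a log2 difference of 1.32 and below it at d4 by -1.29 and at d16D by -2.18. From d0 to d4 the V1PAKI value was lower by a log2 difference of -1.35 and the Ctrl value higher by 1.26. Opposite steps of at least 1 between these stages were seen in 0.0824% of the genes tested. BLCAP, inside which NNAT lies, varied only between 5.98 and 10.8 FPKM. The 12 neural progenitor markers summed to 592 FPKM in V1PAKI d16D and 1059 FPKM in Ctrl d16D, and the part of that difference in the NNAT values was not tested.

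MEST, a gene of the hydrolase fold family expressed in mesoderm of the mouse embryo, had the smallest ratio of highest to lowest FPKM (3.53) of the 9 members above 0 in every library. V1PAKI libraries were at 48.0, 39.7, 118, 74.8 and 87.6 FPKM from d0 to d16V. Ctrl libraries were at 50.8, 43.1, 96.5, 70.2 and 140.0 FPKM. All 4 libraries of d0 and d4 lay below the 6 later ones. MEST rose at d10 relative to d4 by a log2 change of 1.35 (SE 0.25; limma, adjusted p = 0.0477). That call lies close to the threshold and was lost without V1PAKI d0 (0.0823), V1PAKI d4 (0.472), V1PAKI d10 (0.121), V1PAKI d16V (0.0747), Ctrl d0 (0.0829), Ctrl d4 (0.346), Ctrl d10 (0.0552) or Ctrl d16V (0.0744), all limma adjusted p-values. COPG2, on the opposite strand, stayed between 17.1 and 35.0 FPKM.

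Each stage was compared with an earlier one over both lines to ask which genes moved with differentiation. The lines stood as the replicates of a stage. They differ in genotype, so these p-values rest on how far the line difference varied over stages, not on spread between cultures. For d16 against d0, the d16D and d16V libraries of a line counted separately, though they may share a culture up to day 10. For d4 against d0, DLK1 alone of the 9 members tested was called higher and none lower. Of all genes tested, 0.507% were called higher and 0.311% lower. DLK1 entered the tests only through libraries later than d0, so that call is no independent support for a rise. For d10 against d4, DLK1 and MEST were called higher and none lower, against 0.919% higher and 0.52% lower among all genes (145 higher and 82 lower, or 223 and 33 after rescaling to TPM). No member passed for d16D against d10 (limma, adjusted p from 0.0591), where 0.551% of genes were called higher and 0.38% lower, and an unadjusted p below 0.05 was reached by 1497 genes upward and 1180 downward, DLK1 (limma, unadjusted p = 0.0310) and PLAGL1 (0.000665) both higher. PLAGL1 was the called member for d16V against d10, where 0.52% of genes were higher and 0.292% lower. The 2 arms of day 16 were compared as d16V against d16D. No member passed there (0.196% of genes higher, 0.165% lower; 402 upward and 440 downward by an unadjusted p below 0.05), and the log2 changes were -2.52 for IGF2, -1.71 for H19, 0.91 for PLAGL1, 0.68 for PEG10, 0.67 for MEG3 and 0.60 for MEST. The last 4 genes had an unadjusted limma p between 0.00968 and 0.0398, with adjusted p from 0.486 to 0.853; MEG3 entered the tests only through its d16V libraries.

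Over the whole interval, both d16 arms against d0, all 9 members tested were called higher, in a comparison in which 17.4% of all genes tested were called higher and 15.1% lower (2739 higher and 2375 lower, or 4753 and 1835 after rescaling to TPM, which moved the median change of all genes to 0.34 from 0.07). H19, IGF2, DLK1, PLAGL1 and MEG3 entered the test only through libraries later than d0, so the count of 9 is no support for a common rise. The other 4 members had at least 1 FPKM in every library: NNAT rose by 4.24 (SE 0.64; limma, adjusted p = 0.00329), CDKN1C by 3.66 (SE 0.49; 0.00216), PEG10 by 1.74 (SE 0.22; 0.00180) and MEST by 0.85 (SE 0.21; 0.0210). DLK1 rose by 7.53 (SE 0.27; limma, adjusted p = 3.99e-05) and PLAGL1 by 3.07 (SE 0.23; 0.000348). The rises of IGF2 (6.04, SE 1.28; limma, adjusted p = 0.0113) and H19 (5.39, SE 1.27; 0.0167) had the widest errors, with V1PAKI d16V at 6.44 and 9.23 FPKM. MEG3 rose by 0.75 (SE 0.17; limma, adjusted p = 0.0164). In fits without one library, calls were lost for H19 without V1PAKI d0 (0.0697) or Ctrl d0 (0.139), for IGF2 without Ctrl d0 (0.121), for MEG3 without V1PAKI d0 (0.0835) or Ctrl d0 (0.131), and for MEST without V1PAKI d0 (0.0883), Ctrl d0 (0.135) or Ctrl d16V (0.0679). MEG3 could not be tested without either d16V library, since it then had 1 FPKM in a single library.

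**Figure D3:**
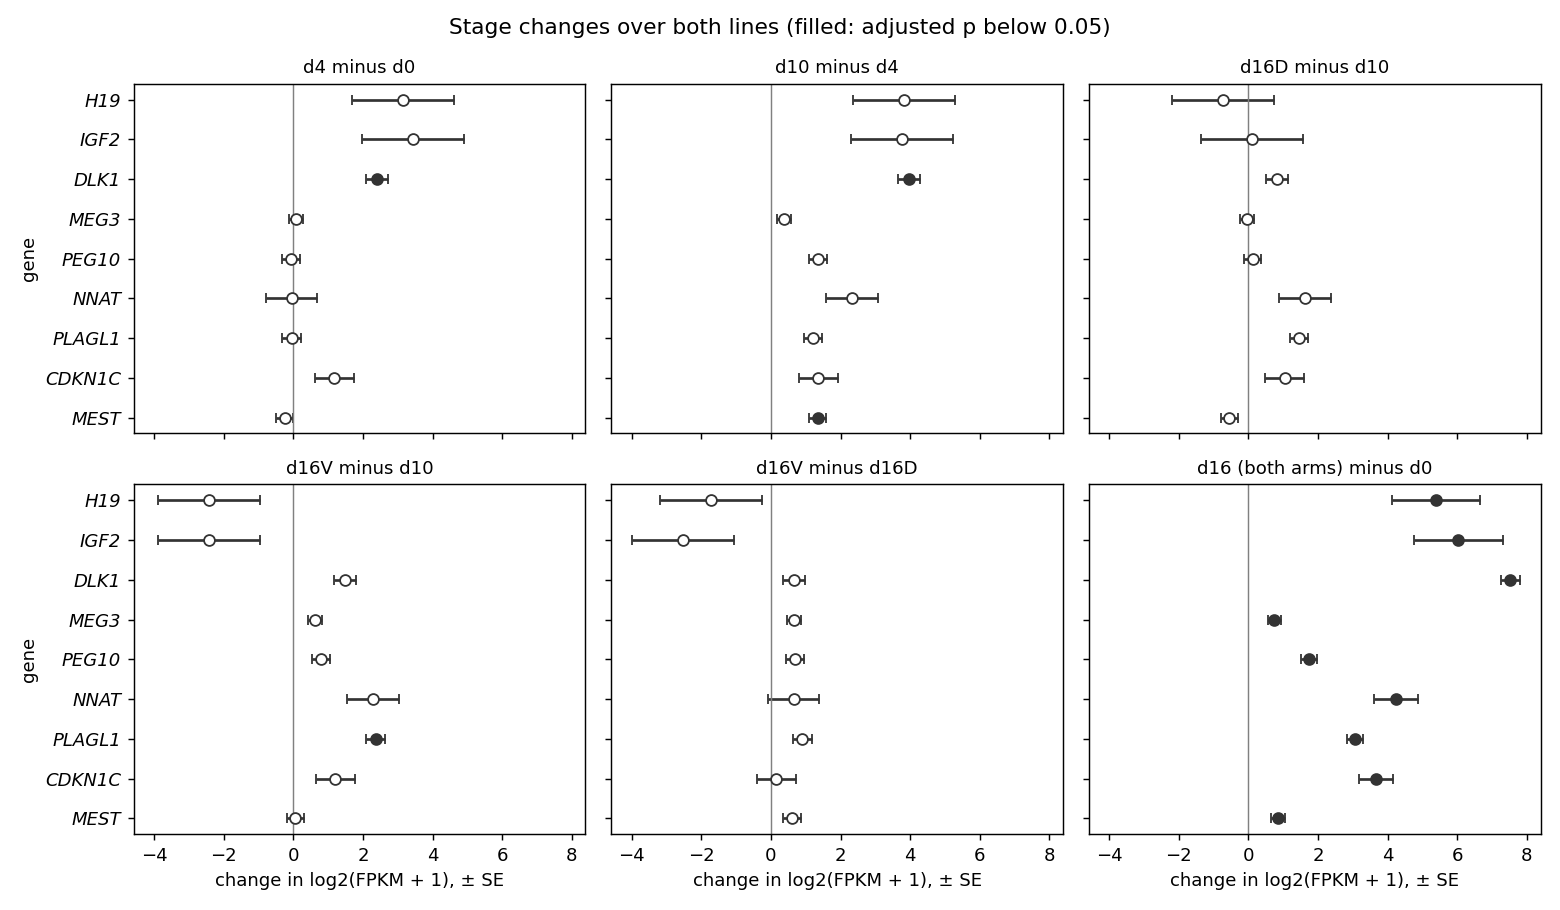
Log2 change of the 9 tested members between stages, over both lines, with bars of 1 standard error from limma; filled points passed an adjusted p of 0.05. DLK1 passes at d4 and d10, MEST at d10, PLAGL1 at d16V and all 9 for d16 against d0, while H19 and IGF2 carry the widest errors.

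The genotype was compared over the 5 stages, with the stage as a block, to ask whether V1PAKI cells differed from Ctrl cells throughout. No member passed, with a limma adjusted p of 1.00 for each of the 9, while no gene of all those tested was called higher (0%) and 3 were called lower (0.019%); an unadjusted p below 0.05 was reached by 161 genes upward and 229 downward. The log2 differences were -0.94 for IGF2 (SE 0.93), -0.44 for DLK1 (SE 0.20), -0.37 for NNAT (SE 0.46), -0.22 for CDKN1C (SE 0.36) and -0.13 for H19 (SE 0.93). They were -0.10 for MEST (SE 0.16), -0.09 for PLAGL1 (SE 0.17), -0.03 for MEG3 (SE 0.13) and 0.05 for PEG10 (SE 0.16). IGF2 and H19, whose differences between the lines changed sign between stages, had the largest errors of the 9. DLK1 had the smallest unadjusted p of the members, 0.0614, with lower V1PAKI values at 4 of the 5 stages. With 1 library of a line at each stage, these p-values measure the spread of the line difference over stages and not between cultures, and both d16 libraries of a line may come from a shared culture up to day 10.

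At single stages the members past a log2 difference of 1 were few and their set changed with the stage. At d0, NNAT was higher and PEG3 lower in V1PAKI, among 5 members with at least 1 FPKM in either library (3.73% of all such genes were higher past this fold and 0.82% lower). At d4, H19 was higher and DLK1 and NNAT lower, of 7 members (0.797% of genes higher and 0.857% lower). At d10, IGF2, H19 and CDKN1C were lower and none higher, of 8 members (3.78% of genes higher and 7.45% lower). At d16D, IGF2 and H19 were higher and NNAT lower, of 8 members (5.5% of genes higher and 3.46% lower). At d16V, IGF2 and H19 were lower and none higher, of 9 members (0.412% of genes higher and 2.49% lower). The d4 difference of DLK1 was -1.01, just past the fold, and its d16D difference of -0.99 fell just short of it.

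**Figure D4:**
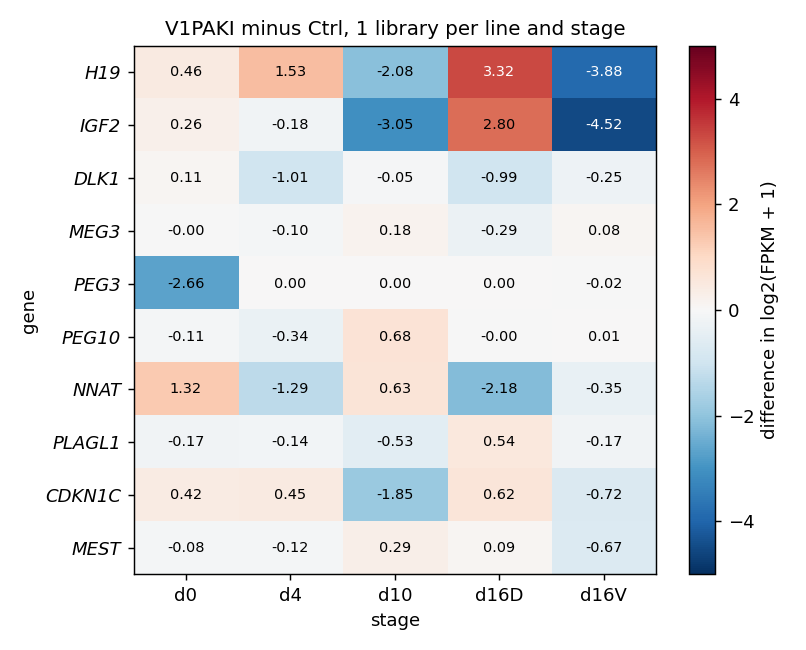
Difference V1PAKI minus Ctrl on the log2(FPKM + 1) scale for each of the 10 genes at each of the 5 stages, 1 library against 1, as a colour (red higher and blue lower in V1PAKI) with the value written in each field. IGF2 and H19 are at -3.05 and -2.08 at d10, at 2.80 and 3.32 at d16D and at -4.52 and -3.88 at d16V, whereas PEG10, PLAGL1, MEST and MEG3 stay within 1 at every stage.

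Other imprinted genes were read from lists chosen by their known parental origin, and no gene of any list below was called between V1PAKI and Ctrl over the 5 stages. Of 10 other paternally expressed genes tested, RTL1 (1.09), NDN (1.04), MAGEL2 (0.99) and NAP1L5 (0.74) rose at d16 relative to d0 in log2 units, and SNRPN fell by 1.85 (SE 0.17; limma, adjusted p = 0.000498). The median change of the list was 0.34, against 0.07 for all genes tested, of which 17.4% were called higher and 15.1% lower. RTL1 entered the tests only through d16 libraries and MAGEL2 only through those from d10 on, so these calls are no support for a rise of the list. SNRPN, which encodes a splicing protein in the chromosome 15 region that also holds NDN and MAGEL2, was at 200.7, 157, 84.8, 47.7 and 54.1 FPKM from d0 to d16V in V1PAKI, and at 163, 151, 94.1, 40.3 and 57.6 FPKM in Ctrl. Of 9 other maternally expressed genes tested, OSBPL5 rose by 0.75 and ATP10A, which had 1 FPKM only at d0 and in V1PAKI d4, fell by 0.93, and the median was -0.07. NDN also rose at d10 relative to d4 by 1.13 (SE 0.21; limma, adjusted p = 0.0494). Members and lists were not tested against each other.

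Of 22 neighbours of the members that were tested, 4 rose at d16 relative to d0 and 2 fell. DIO3 rose by 3.13 (SE 0.39; limma, adjusted p = 0.00174), BEGAIN by 1.86, RTL1 by 1.09 and CEP41 by 0.69, and CARS (-1.07) and WARS (-0.62) fell; the median was 0.18. The count lies near the 17.4% of all genes called higher and 15.1% called lower. RTL1, DIO3 and BEGAIN entered the tests only through libraries from d10 on, RTL1 only through d16, so their part of the count is no support for a rise. DIO3, BEGAIN, RTL1 and WARS all lie around DLK1 and MEG3 on chromosome 14. No neighbour was called for any other pair of stages. IGF2-AS, chosen after its values were seen because it is antisense to IGF2, was at 0.0509, 0.0562, 0.255, 4.24 and 0.0545 FPKM in V1PAKI and at 0, 0.0716, 3.23, 0.453 and 1.01 FPKM in Ctrl, highest in the same libraries as IGF2.

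**Figure D5:**
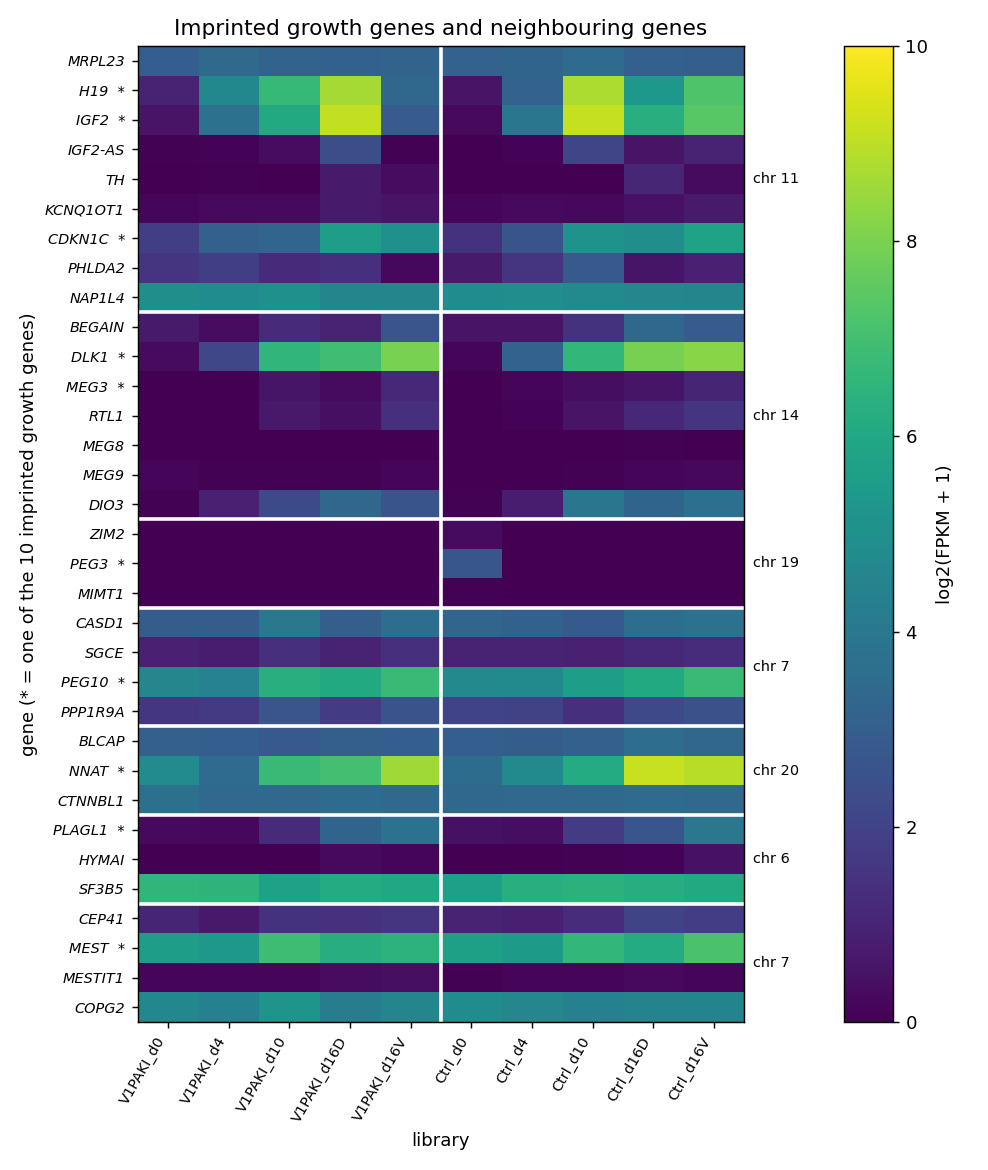
Log2(FPKM + 1) of the members (marked *) and their neighbours, grouped by chromosome and ordered along it, in the 5 V1PAKI libraries (left) and the 5 Ctrl libraries (right). IGF2, H19 and IGF2-AS are highest in V1PAKI d16D and Ctrl d10, while BLCAP beside NNAT and COPG2 beside MEST stay nearly even.

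IGF2 acts through receptors and adaptors, of which 17 listed genes were tested. At d16 relative to d0, 5 rose and none fell: PAPPA, a protease that frees IGF from its binding proteins (1.32), IRS4 (1.29) and IRS2 (0.60), adaptors of the receptors, PIK3R1 (1.19), a subunit of phosphoinositide 3-kinase, and AKT2 (0.68), a downstream kinase; the list median was 0.18. Of all genes tested, 17.4% were called higher and 15.1% lower, and PAPPA entered the tests only through libraries from d10 on. The receptors themselves were not called: IGF1R lay between 8.08 and 18.2 FPKM and IGF2R, which clears IGF2, between 12.9 and 18.6 FPKM across the libraries. IGF1 did not exceed 0.0561 FPKM in any library. No gene of the list was called between other stages.

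Genes that set or keep imprints showed changes in both directions. Of 16 tested, 5 rose at d16 relative to d0, led by UHRF1 (1.34), which guides maintenance methylation, and TET2 (1.03), an enzyme that oxidises methylated DNA, with TET3 (0.77) and ZNF445 (0.77) next. DNMT3B, a methyltransferase that lays new methylation and is also a marker of stem cells, fell by 3.08 (SE 0.26; limma, adjusted p = 0.000423), DPPA3 fell by 1.08 and TET1 by 0.96; the list median was 0.05. Among all genes tested 17.4% were called higher and 15.1% lower. TET2 passed the filter on low values only through libraries from d10 on, and DPPA3 only through d0 and d4. DNMT3B was at 237, 470.1, 137, 37.7 and 39.9 FPKM from d0 to d16V in V1PAKI and at 400.3, 510.3, 173, 24.7 and 42.1 FPKM in Ctrl. DPPA3, which protects imprints in the early mouse embryo, rose at d4 relative to d0 by 1.80 (limma, adjusted p = 0.0264) and fell by 2.23 at d10 relative to d4. NLRP2, linked to imprinting faults when mutated in the mother and chosen here after its values were seen, was at 0.143, 0.200, 0.00536, 0.0340 and 0 FPKM in V1PAKI and at 26.8, 14.7, 10.8, 2.92 and 3.26 FPKM in Ctrl. Its difference between the lines over the 5 stages was -3.17 (SE 0.38; limma, adjusted p = 0.137) and was not called. Of the 4 CDK inhibitors tested beside CDKN1C, CDKN2D (1.37) and CDKN1B (1.181) rose at d16 relative to d0, with a list median of 0.98, and CDKN2B rose at d10 relative to d4 by 1.61, a gene that entered the tests only through its d10 libraries.

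Genes whose levels ran most like each member over the 10 libraries were sought among 2094 tested genes with a log2 range of at least 2. For H19 these were LUM, AHNAK and COL3A1 and for IGF2 they were COL3A1, LUM and ENPP2, with Pearson r from 0.98 to 0.99. LRP2, NUAK2 and SKIDA1 were nearest to DLK1 (r = 0.99 each), SIX6, SOX5 and CADM1 to PEG10 (0.98 to 0.99), and ARNT2, PRRT2 and DPYSL5 to NNAT (0.98 to 0.99). TMTC2, GPR50 and AL161729.4 were nearest to MEG3 (0.97 to 0.98), FAM222A, EFCC1 and FAM183A to PLAGL1 (0.97 to 0.98), and IER5L, DACT3 and RIPOR1 to CDKN1C (0.98 to 0.99). MEST had the least close partners, FBN2, MBNL2 and SEMA5A, at 0.94 to 0.96. No member was among the nearest genes of another by construction, since members were left out of the candidates. Among the members, H19 and IGF2 were the most alike pair (0.98), DLK1 correlated with MEG3 at 0.83 and with PEG10 at 0.92, and H19 with MEG3 at 0.36. The libraries share lines and stages, so these values order the genes and test nothing.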

How the data were processed

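The authors deposited FPKM values for 42335 gene symbols in 10 libraries, made from 1 µg of total RNA with the Illumina TruSeq kit per the labels' protocols. The tools named are cutadapt 1.18, HISAT2 2.1.0 and Cufflinks with GRCh38, per the submitters' processing notes; annotation and strand setting were not given in the sources used here. FPKM keep no depth, so no counting errors could be given, and a listed 0 can be a failed estimate.

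Values were analysed as log2(FPKM + 1), a scale that understates changes of low genes. A gene was kept if 2 or more libraries held 1 FPKM or more of it, which left 15779 genes, 9 members among them. They were fitted in limma 3.58.1 (R 4.3.3; eBayes with trend), with stage and line as terms, 4 residual degrees of freedom, two-sided tests, Benjamini-Hochberg adjustment over all genes and a threshold of 0.05. The fit was tested on simulated data with the same spread for every gene and no difference between the lines. That test does not cover genes as uneven between the lines as H19 and IGF2. V1PAKI and Ctrl were set side by side at single stages without a test. Named genes were all members, up to 4 called genes of each list, and the 3 most alike non-members of each member. Further called genes completing a count, and uncalled neighbours, receptors and markers, were named after their values were seen. The members and lists were chosen with earlier results of these data known. Positions came from GENCODE v29 and sequences from RefSeq (GRCh38.p14). Alternatives were another pseudocount, no filter, TPM or median-of-ratios scaling, no block for the line, and libraries left out. The 16 mesenchyme and muscle, 15 endoderm and liver, 12 trophoblast and amnion and 12 neural progenitor markers were summed per library.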

Additional observations from a re-analysis of the deposited data

Results flagged for a closer look

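Some steps between stages ran one way in V1PAKI and the other way in Ctrl by at least 1 on the log2(FPKM + 1) scale. With 1 library per line and stage, the difference between the lines was not tested. NNAT from d0 to d4 stood at -1.35 in V1PAKI and 1.26 in Ctrl, one of 13 such genes among the 15779 tested (0.0824%). From d10 to d16D, H19 stood at 1.98 in V1PAKI and -3.42 in Ctrl, and IGF2 at 3.02 in V1PAKI and -2.83 in Ctrl, among 245 such genes (1.55%). From d16D to d16V, H19 stood at -5.31 in V1PAKI and 1.89 in Ctrl, and IGF2 at -6.19 in V1PAKI and 1.14 in Ctrl, among 47 such genes (0.298%). The summed mesenchyme and muscle markers were at 396 FPKM at d10, 1324 at d16D and 15.3 at d16V in V1PAKI, and at 1318, 199.5 and 337 FPKM in Ctrl, and their part in the H19 and IGF2 steps was not tested.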

How the results depend on the processing

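Under the settings other than leaving out one library, 450 of the members' tests and single-stage differences counted as unchanged. Among the rest, 8 tests turned sign, 7 lost and 7 gained a call, and 1 single-stage difference moved across the fold. Unchanged meant the same direction and call for a test, and the same side of the fold for a single-stage difference. Sign turns of single-stage differences below the fold were not counted. The labels give no replicate numbers, so libraries were blocked by stage or by line only. Depth is unknown, so its limit on low members such as MEG3 cannot be given.

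The number of genes called was 3 for V1PAKI against Ctrl over the 5 stages, 129 for d4 against d0, 227 for d10 against d4, 147 for d16D against d10, 128 for d16V against d10, 57 for d16V against d16D and 5114 for d16 against d0. Without a filter, which adds genes to the adjustment, the counts were 0 for the lines, 11 for d4, 3 for d10, 34 for d16D and 64 for d16V against d10. No call of DLK1 at d4 (limma, adjusted p = 0.120) or d10 (0.0668), MEST at d10 (0.171), PLAGL1 at d16V (0.0642) or, for d16 against d0, H19 (0.0808), IGF2 (0.0626) and MEST (0.0628) then remained. TPM scaling gave 11 for the lines, 75 for d4 and 28 for d16V against d16D, and a pseudocount of 0.1 gave 91 for d16D against d10 and 7 for d16V against d16D. TPM moved the median of all genes to 0.12 for d10 against d4, 0.15 for d16D and 0.18 for d16V against d10. Without the line block the counts were 237 for d4, 408 for d10, 244 for d16D and 277 for d16V against d10; PEG10 (0.0260) and PLAGL1 (0.0445) then passed for d10 against d4 and PLAGL1 (0.0334) for d16D against d10. On the FPKM scale PLAGL1 entered the tests only through libraries from d10 on, so its calls for d10 against d4 there are no independent support for a rise. PLAGL1 passed for d10 against d4 also under TPM (limma, adjusted p = 0.0358).

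Leaving out Ctrl d10 and V1PAKI d16D together, chosen after seeing the data as the libraries with the highest mesenchyme and muscle markers, gave 0 for the lines, 368 for d4, 634 for d10, 56 for d16D, 194 for d16V against d10 and 16 for d16V against d16D. Signs then turned for PEG10 (-0.15) and CDKN1C (0.051) between the lines, IGF2 (-1.25) and PEG10 (-0.37) for d16D against d10, MEST (-0.24) for d16V against d10, and H19 (0.26) and NNAT (-0.38) for d16V against d16D. PEG10 (0.0420) and PLAGL1 (0.0496) passed for d10 against d4. Median-of-ratios scaling put MEST for d16V against d10 at -0.0385 and the d4 line difference of DLK1 at -0.93. The cause of these shifts was not tested.

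At single stages, the genes past the fold numbered 621 at d0, 222 at d4, 1596 at d10, 1362 at d16D and 423 at d16V. With a pseudocount of 0.1 they numbered 1397, 563, 3092, 2734 and 1043, and under TPM 2340, 1439, 4668, 4979 and 2614.

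Leaving out one library leaves a lone library at its stage, assumed to vary like the rest. The counts then ranged from 0 to 0 for the lines, 0 to 195 for d4, 0 to 460 for d10, 21 to 340 for d16D and 3 to 691 for d16V against d10, 0 to 63 for d16V against d16D and 1145 to 6608 for d16 against d0. Signs turned within these ranges between the lines for H19 (-0.99 to 0.81), CDKN1C (-0.42 to 0.19), MEG3 (-0.0783 to 0.0380), MEST (-0.19 to 0.0462), NNAT (-0.80 to 0.0766), PEG10 (-0.11 to 0.14) and PLAGL1 (-0.25 to 0.0167). They turned for d4 against d0 for NNAT (-1.11 to 1.01) and PEG10 (-0.31 to 0.18), and for d16D against d10 for H19 (-2.87 to 1.43), IGF2 (-2.24 to 2.43), MEG3 (-0.21 to 0.11) and PEG10 (-0.28 to 0.51). They turned for MEST for d16V against d10 (-0.31 to 0.41), and for d16V against d16D for H19 (-4.06 to 0.63), CDKN1C (-0.37 to 0.68) and NNAT (-0.47 to 1.79).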
